A study of Mus musculus with 16 samples.

Results

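The genes described here are 5 transcription factors of the C/EBP family (Cebpa, Cebpb, Cebpd, Cebpe and Cebpg) and the repressors Gfi1 and Gfi1b, chosen by their symbols. They are 7 of the 53342 genes in the deposited tables, and each of the 7 was among the 16482 genes with enough counts to be tested. RNA was sequenced from 16 samples of LSK cells, mouse marrow cells without lineage markers that carry Sca-1 and c-Kit, among which are stem cells and multipotent progenitors. The 4 groups were Gata2 +9.5(Ets)-/- mice after 5-fluorouracil (5-FU, n = 3), wild-type (WT) mice after 5-FU (n = 3), Gata2 +9.5(Ets)-/- mice after PBS (n = 5) and WT mice after PBS (n = 5). The mutant mice are homozygous for a C-to-T transition in an Ets motif of the +9.5 enhancer, an intronic element of Gata2, and the change is in the germ line, so it is present in every cell type. 5-FU, which kills dividing blood cells, was given at 250 mg/kg, and all mice were C57BL/6J, aged 8 to 14 weeks, and were sampled 10 days after injection. Between 3000 and 10000 cells were sorted for each sample. Nothing in the labels ties each replicate to a mouse of its own, so each p measures the spread between these samples, which may be technical.

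C/EBP proteins are basic leucine zipper factors that bind a shared DNA motif as dimers. In blood formation CEBPA is needed for the step from multipotent to granulocyte-monocyte progenitors, and CEBPE acts later, in the maturation of granulocytes. GFI1 and GFI1B are zinc-finger repressors that recruit the histone demethylase LSD1 and its partner CoREST; GFI1 restrains stem cell division and supports neutrophil formation, and GFI1B is needed in erythroid cells and megakaryocytes.

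Sequences upstream of the start sites are shown for Gfi1b and Cebpa, for which the start sites of RefSeq and GENCODE coincide. Gfi1b was chosen since its WT groups did not overlap, as held for 2 of the 7 members (with Cebpe) and 31.8% of all genes. Cebpa was chosen since its 5-FU groups did not overlap, as held for 1 of the 7 members and 39.4% of all genes. Neither gene was called in that comparison by the main test. The sequences are the 250 bases before the start in GRCm38.p6, from RefSeq, written 5′ to 3′ on the strand of the gene. Capitals mark the letters of a searched motif. The Gfi1b sequence is chr2:28621983-28622232 on the minus strand and the Cebpa sequence is chr7:35119043-35119292 on the plus strand.
Gfi1b: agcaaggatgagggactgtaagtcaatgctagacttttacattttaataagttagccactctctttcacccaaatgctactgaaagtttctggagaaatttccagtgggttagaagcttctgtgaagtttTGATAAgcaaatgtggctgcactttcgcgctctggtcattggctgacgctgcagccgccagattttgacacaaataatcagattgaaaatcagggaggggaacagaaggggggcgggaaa
Cebpa: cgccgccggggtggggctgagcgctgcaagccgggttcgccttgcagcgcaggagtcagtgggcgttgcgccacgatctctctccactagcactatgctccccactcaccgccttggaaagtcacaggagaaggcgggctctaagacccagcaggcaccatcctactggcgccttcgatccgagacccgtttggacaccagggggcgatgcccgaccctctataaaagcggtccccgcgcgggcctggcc
The capitals in the Gfi1b sequence are TGATAA, a form of the GATA motif, whose first letter lies 120 bases before the start. TGATAA, searched on both strands, is present in 7.94% of 32851 mouse promoter windows of this length. It was added to the searched motifs after values were seen. The other searched motifs were AGATAA (9.99% of windows), CCGGAAG, an Ets motif (6.91%), the C/EBP core (9.56%) and the GFI1 core (2.4%). None of these was present in the Gfi1b window. The Cebpa window held 0 of the 5 motifs, and so did those of Cebpb and Cebpg. Gfi1 has 2 entries, 1 of which held the C/EBP core, with a start 231 bases from that of GENCODE. Promoter entries were found for 5 of the 7 genes. A match is a description of the letters and says nothing of binding.

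Libraries held between 19370153 and 28883365 expected counts. Transcripts of immunoglobulin genes took 5.69 to 26.6% of counts in mutant 5-FU libraries, 0.039 to 0.332% in WT 5-FU libraries, 3.67 to 50.2% in mutant PBS libraries and 6.37 to 44.2% in WT PBS libraries. Replicate 3 had the highest share of its group in both PBS groups. Each of 10 markers of LSK and stem cells was detected in every group, with a summed level of 1182 to 1543 CPM (counts scaled to library size with TMM factors) in mutant 5-FU, 1643 to 1943 in WT 5-FU, 2046 to 4386 in mutant PBS and 2542 to 4994 in WT PBS libraries. In bulk samples such as these, fewer cells that make a transcript and less of it per cell cannot be told apart.

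Per transcript length, Cebpb and Gfi1b had the highest mean of the 7 genes in each group and Cebpa and Cebpe the lowest. TPM, the deposited share of all transcripts with length taken into account, ranked Cebpb first in 13 of 16 libraries and second in the other 3, which were WT 5-FU replicates 1 and 2 and mutant 5-FU replicate 2, where Gfi1b was first. Gfi1 and Cebpg followed, then Cebpd, which was the fifth in 13 libraries. Cebpe was the seventh in 8 libraries, among them all 6 5-FU libraries, and Cebpa the seventh in the other 8. Under PBS, Cebpe (4.90 ± 2.65 TPM in the mutant, 4.86 ± 2.16 in WT) was near Cebpd (6.06 ± 3.79 and 5.04 ± 3.31, SD, n = 5 each). The rank of Cebpe was 3 in WT PBS replicate 3, where that of Gfi1b was 6. It was 4 in mutant PBS replicate 3 and 5 in WT PBS replicate 1. In mutant 5-FU libraries the means were 71.8 ± 35.2 TPM for Cebpb, 56.7 ± 33.6 for Gfi1b, 19.0 ± 5.62 for Cebpg, 17.4 ± 5.66 for Gfi1, 5.87 ± 1.48 for Cebpd, 0.937 ± 0.427 for Cebpa and 0.257 ± 0.186 for Cebpe (SD, n = 3). In WT 5-FU libraries they were 70.3 ± 44.0 TPM for Cebpb, 90.0 ± 10.5 for Gfi1b, 38.0 ± 5.31 for Gfi1, 30.2 ± 4.63 for Cebpg, 12.5 ± 4.35 for Cebpd, 7.26 ± 3.31 for Cebpa and 0.733 ± 0.969 for Cebpe. Over libraries the ranges of Cebpb and Gfi1b overlapped in each group, as did those of Gfi1 and Cebpg. Within libraries, Cebpb was above Gfi1b in 2 of 3 mutant 5-FU, 1 of 3 WT 5-FU, 5 of 5 mutant PBS and 5 of 5 WT PBS libraries. Gfi1 was above Cebpg in 1 of 3 mutant 5-FU, 3 of 3 WT 5-FU, 3 of 5 mutant PBS and 4 of 5 WT PBS libraries.

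**Figure D1:**
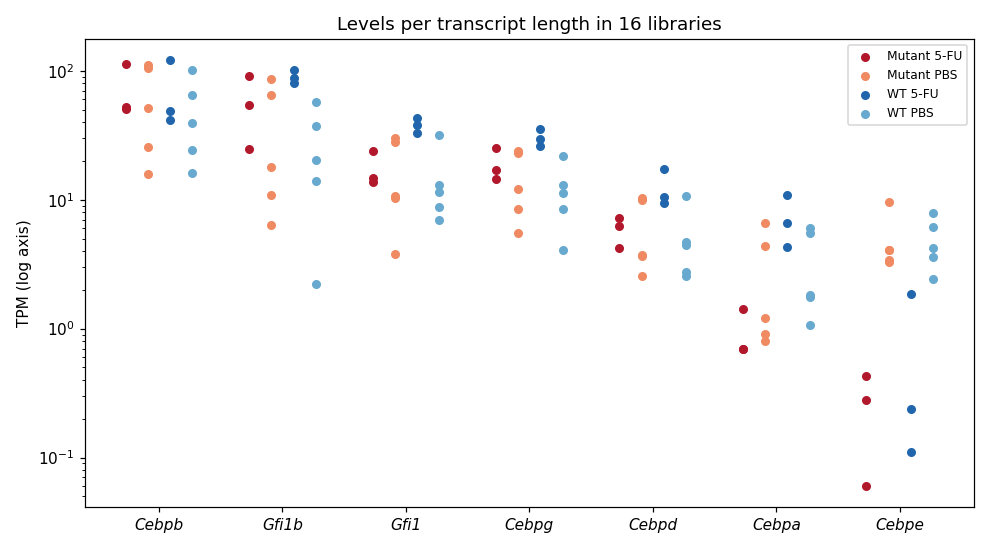
TPM of the 7 genes on a log axis, 1 point per library, coloured by group. Cebpb and Gfi1b sit at the top in nearly all libraries, and Cebpe spans the widest range, down to 0.06 TPM in a mutant 5-FU library.

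Cebpe (chromosome 14, 54710360 to 54712174, minus strand, GRCm38, GENCODE M21), the factor of late granulocyte maturation, was the only one of the 7 genes to pass the threshold in any comparison. It fell after 5-FU in both genotypes. Mutant 5-FU replicates 1 to 3 had 0.0787, 0.412 and 0.213 CPM, and mutant PBS replicates 1 to 5 had 4.62, 6.24, 15.5, 7.72 and 2.58 CPM. WT 5-FU replicates 1 to 3 had 0.121, 0.0532 and 1.06 CPM, against 8.99, 4.39, 14.6, 4.08 and 5.08 CPM in WT PBS replicates 1 to 5. Within each genotype every 5-FU library lay below every PBS library, and WT 5-FU replicate 3 was the highest of the treated libraries. The lowest values rest on few reads, 2 expected counts in mutant 5-FU replicate 1 and 2 in WT 5-FU replicate 2, below the 3 counts taken as the floor of a library.

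In the mutant, Cebpe averaged 0.235 ± 0.168 CPM after 5-FU (SD, n = 3) and 7.33 ± 4.95 CPM after PBS (n = 5), a log2 fold change of -4.91 ± 0.96 (SE; edgeR quasi-likelihood test, adjusted p = 0.0114 over all genes tested). In this comparison 2.2% of all genes were called, and Cebpe was the 1 of the 7 members called; 0.837% of all genes and 0 members were called as higher. The 5-FU and PBS groups did not overlap for 9.99% of all genes in the mutant and for 31.8% in WT. In WT, Cebpe averaged 0.413 ± 0.565 CPM after 5-FU and 7.43 ± 4.47 CPM after PBS, a log2 fold change of -4.20 ± 0.92 (edgeR adjusted p = 0.00884), again the 1 member called, where 14.9% of all genes were called and 5.55% of all genes and 0 members were called as higher. The responses of the genotypes differed by -0.71 ± 1.13 on the log2 scale (edgeR adjusted p = 0.813). The call in the mutant ended without mutant 5-FU replicate 1 (-4.52, edgeR adjusted p = 0.0509) or replicate 3 (-4.82, 0.0747), and without mutant 5-FU replicate 2 the value was -5.56 (0.0402). The call in WT ended without WT 5-FU replicate 1 (-3.75, edgeR adjusted p = 0.0537) or 2 (-3.64, 0.0517), and the value was -6.33 (0.00254) without replicate 3 and -3.20 (0.0461) when the share of immunoglobulin counts entered the fit.

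Sample codes in the labels share a prefix across treatments for some libraries, and the labels do not say what the prefix means. Among mutant libraries of 1 prefix (5-FU n = 3, PBS n = 2) Cebpe differed by -4.48 ± 0.62 (edgeR adjusted p = 0.00714). Among WT libraries of 1 prefix the only 5-FU library was replicate 3, the highest of the treated ones, and its difference from 2 PBS libraries was -2.10; a spread for WT 5-FU cannot be had from 1 library, and the edgeR adjusted p of 0.387 assumes that it varies like the other groups of that fit. No prefix occurs in both genotypes, so prefix and genotype cannot be told apart.

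Cebpe and the transcripts of neutrophils were both lower after 5-FU in both genotypes. The summed level of 10 neutrophil markers was 3.66 to 115 CPM in mutant 5-FU, 8.35 to 208 in WT 5-FU, 4418 to 24977 in mutant PBS and 3402 to 23852 in WT PBS libraries, and 0 of the 10 were undetected in every library of a group. Within mutant 5-FU, WT 5-FU and WT PBS the libraries had the same order by CPM of Cebpe as by these markers. In mutant PBS replicate 3 was the highest by both, and the other replicates differed in order. Replicate 3 had the smallest TMM factor of each PBS group (0.508 in the mutant, 0.547 in WT), which raises all its CPM. Its sums of LSK and stem cell, monocyte and macrophage, plasma cell and B cell markers were also the highest of each PBS group. By TPM, Cebpe was highest in mutant PBS replicate 4 (9.59, against 4.11 in replicate 3). In WT PBS it was highest in replicate 5 (7.9, against 4.25 in replicate 3). The part of neutrophils in the fall of Cebpe was not tested.

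**Figure D2:**
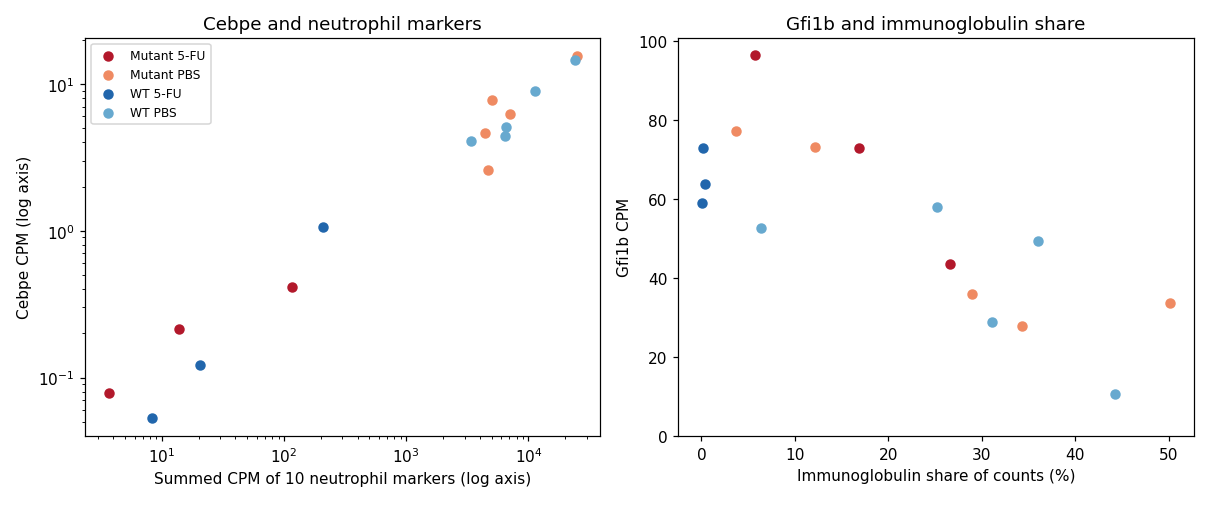
Left: CPM of Cebpe against the summed CPM of 10 neutrophil markers, log axes, 1 point per library; the 5-FU libraries of both genotypes lie at the lower left, at or below 208 CPM of markers. Right: CPM of Gfi1b against the percentage of counts from immunoglobulin genes; the lowest Gfi1b value, 10.7 CPM, is in WT PBS replicate 3, at a share of 44.2%.

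Cebpa (chromosome 7, 35119293 to 35121928, plus strand), which drives entry into the granulocyte-monocyte lineage, was lower in each mutant library than in each WT library after 5-FU, without passing the threshold. Mutant 5-FU replicates 1 to 3 had 1.77, 1.33 and 2.22 CPM, against 6.95, 4.15 and 12.4 CPM in WT 5-FU replicates 1 to 3. Groups that do not overlap were the case for 39.4% of all genes tested in this comparison. The log2 fold change was -2.14 ± 0.54 (edgeR adjusted p = 0.0533), and 1.95% of all genes and 0 of the 7 members were called; 3034 of all genes and 2 members, Cebpa and Cebpb, had an unadjusted p under 0.05. The adjusted p lay between 0.00206 and 0.561 over 27 alternatives and was under the threshold in 9 of them. Those 9 included DESeq2 (0.00206), limma-voom with quality weights (0.0104), a fit of the 5-FU groups alone (0.0242), scaling without the immunoglobulin genes (0.0461), and edgeR without mutant PBS replicate 1 (0.0431), 3 (0.0468) or 4 (0.0399). DESeq2 called 1308 of all genes in this comparison and limma-voom 5074, against 321 by the main test. The labels write some sample codes with a leading zero. With that writing as a covariate, which in the 5-FU groups cannot be told apart from genotype, the difference was -1.27 ± 0.57 (edgeR adjusted p = 0.561). Beside this comparison, the summed LSK and stem cell markers were lower in each mutant 5-FU library than in each WT 5-FU library, as given above, and the summed level of 10 monocyte and macrophage markers was 495 to 920 CPM in mutant 5-FU and 23.7 to 116 CPM in WT 5-FU libraries. Markers of plasma cells (8 genes, 2268 to 19310 CPM in mutant 5-FU and 137 to 376 CPM in WT 5-FU libraries), of B cells (6 genes, 61.7 to 221 against 21.8 to 33.8 CPM, Pax5 at 0 in WT 5-FU) and of eosinophils, basophils and mast cells (8 genes, 89.8 to 107 against 16.4 to 31.7 CPM, Epx at 0 in both) separated the same groups. Their part in the difference was not tested.

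Under PBS, Cebpa stood at 2.08, 4.21, 6.43, 11 and 5.49 CPM in mutant replicates 1 to 5 and at 5.20, 6.20, 6.89, 12.8 and 7.90 CPM in WT replicates 1 to 5. These groups overlapped, and the log2 fold change was -0.42 ± 0.40 (edgeR adjusted p = 1). The mutant library was the lower in 5 of the 5 pairs of PBS libraries with the same replicate number, and with the number as a block the value was -0.52 ± 0.28 (edgeR adjusted p = 1). 5-FU set against PBS gave -1.72 ± 0.50 in the mutant (edgeR adjusted p = 0.0993) and 0.01 ± 0.46 in WT (0.994). Without mutant PBS replicate 1 the mutant value was -1.93 (edgeR adjusted p = 0.0491). The difference between these responses was -1.72 ± 0.67, with an edgeR adjusted p of 0.324, and in this interaction 0.589% of all genes and 0 of the 7 members were called (0.558% of all genes as higher, 0.0303% as lower). Cebpa was the 1 member with an unadjusted p under 0.05 there, DESeq2 and limma-voom called 0 members, and 1788 of all genes had such a p. Within the shared code prefix the difference between 5-FU and PBS in the mutant was -0.82 ± 0.42 (edgeR adjusted p = 0.352), and in WT the direction differed between alternatives.

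**Figure D3:**
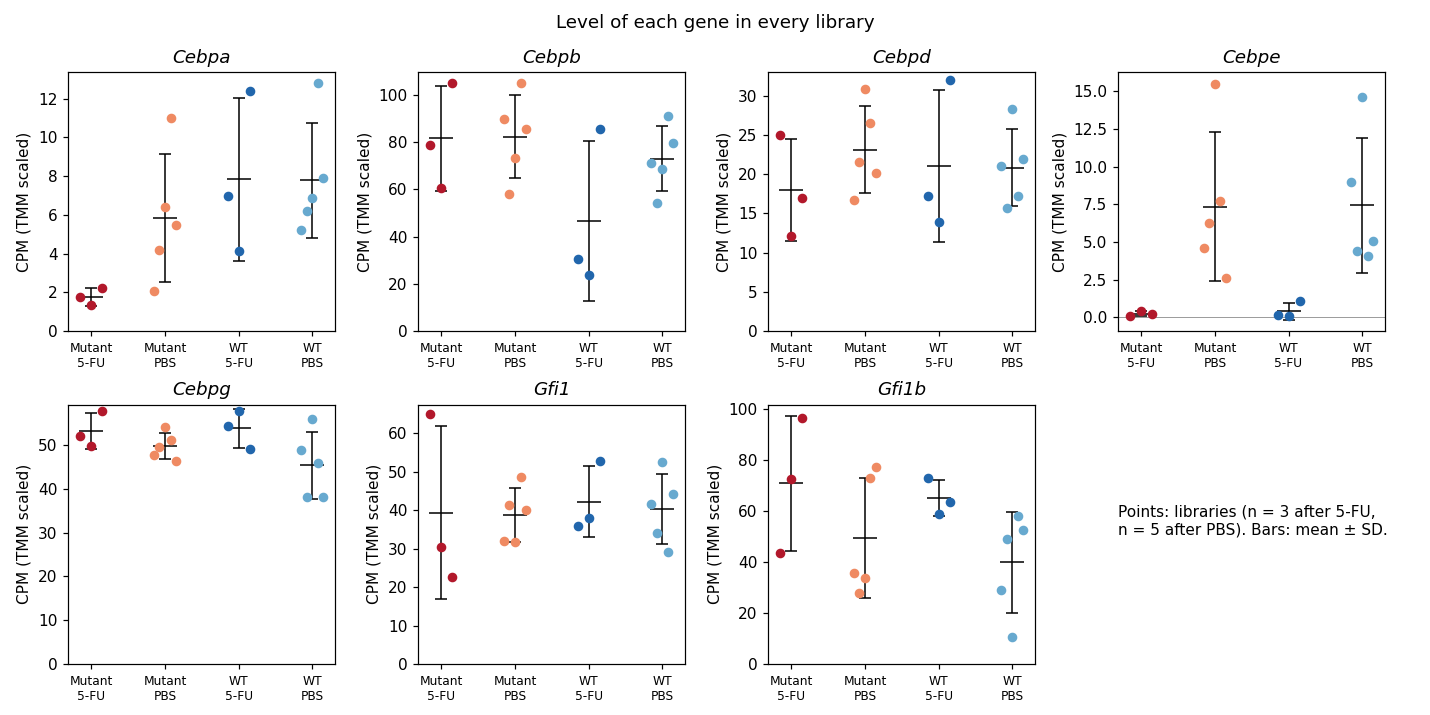
CPM of each gene in every library, by group, with the mean and SD. Cebpe is near 0 in both 5-FU groups, the 3 mutant 5-FU libraries lie below the WT 5-FU libraries for Cebpa, and Cebpg has the narrowest spread.

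Cebpb (chromosome 2, 167688915 to 167690418, plus strand), known for granulocyte production under stress and for monocyte survival, varied among the WT libraries after 5-FU. Mutant 5-FU replicates 1 to 3 had 78.8, 60.7 and 105 CPM, against 30.4, 23.9 and 85.4 CPM in WT 5-FU replicates 1 to 3. WT replicate 3 was within the range of the mutant libraries, while WT replicates 1 and 2 were below them. WT replicates 1 and 2 share a code prefix that WT replicate 3 does not have. Mutant and WT differed by 0.81 ± 0.38 (edgeR adjusted p = 0.271), and by 1.58 ± 0.31 (edgeR adjusted p = 0.0344) without WT 5-FU replicate 3. Without WT 5-FU replicate 1 the value was 0.57 (edgeR adjusted p = 0.543), and without replicate 2 it was 0.49 (0.694). PBS libraries had 58.0 to 105 CPM in the mutant (median 85.3) and 54.2 to 91.1 CPM in WT (median 71.0), and the groups differed by 0.17 ± 0.29 (edgeR adjusted p = 1). The mutant library was the higher in 5 of 5 same-numbered pairs, and the blocked value was 0.17 ± 0.21 (edgeR adjusted p = 1). In WT, 5-FU and PBS differed by -0.65 ± 0.35 (edgeR adjusted p = 0.18), and by -1.42 ± 0.29 (edgeR adjusted p = 0.0101) without WT 5-FU replicate 3. The difference was -0.41 (edgeR adjusted p = 0.48) without WT 5-FU replicate 1 and -0.33 (0.567) without replicate 2. It was 0.63 ± 0.67 on log2(TPM + 1) with limma (adjusted p = 0.429). Within the shared code prefix, where replicate 3 is the only WT 5-FU library, it was 0.01. In the mutant this difference was -0.01 ± 0.34 (edgeR adjusted p = 0.994). WT 5-FU replicate 3 was also the highest of the 3 for Cebpa, Cebpd, Cebpe and Gfi1. The same held for the summed markers of neutrophils, monocytes and macrophages, erythroid cells, megakaryocytes, plasma cells, B cells, and T and NK cells. It did not hold for those of LSK and stem cells (1643 CPM) or of eosinophils, basophils and mast cells (29.1 CPM).

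Cebpd (chromosome 16, 15887286 to 15891031, plus strand), a factor of acute-phase and inflammatory responses, did not pass in any comparison. It had 25.0, 12.1 and 17.0 CPM in mutant 5-FU and 17.2, 13.9 and 32.0 CPM in WT 5-FU replicates 1 to 3. PBS libraries ranged from 16.7 to 30.8 CPM in the mutant and from 15.7 to 28.3 CPM in WT, so all 4 groups overlapped. The log2 fold changes were -0.22 ± 0.34 between genotypes after 5-FU (edgeR adjusted p = 0.743), 0.15 ± 0.27 under PBS (1), -0.36 ± 0.31 for 5-FU in the mutant (0.719) and 0.01 ± 0.31 for 5-FU in WT (0.982). Genes on the other strand overlap the ends of Cebpd (Spidr) and Cebpb (Tmem189). The sources used here do not say that strand was used in counting, so reads of these pairs may not be told apart; the expected count was fractional for Cebpd in 15 and for Cebpb in 5 of 16 libraries.

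Cebpg (chromosome 7, 35046422 to 35056573, minus strand) encodes a C/EBP that lacks an activation domain and acts through its dimer partners. Its gene lies 62.7 kb from that of Cebpa. It was the most even of the 7, at 49.8 to 57.8 CPM in mutant 5-FU, 49.1 to 57.8 in WT 5-FU, 46.3 to 54.1 in mutant PBS and 38.0 to 56.0 in WT PBS libraries. Its log2 fold changes were -0.01 ± 0.18 (edgeR adjusted p = 0.975) between genotypes after 5-FU and 0.14 ± 0.14 (1) under PBS. 5-FU set against PBS gave 0.10 ± 0.16 (edgeR adjusted p = 0.868) in the mutant and 0.25 ± 0.16 (0.257) in WT. The WT difference passed with limma-voom and quality weights on the scaled counts (0.30 ± 0.10, adjusted p = 0.0208) and with limma on log2(TPM + 1) (1.45 ± 0.53, adjusted p = 0.0391). Those fits called 6993 and 7509 of the 16482 genes, against 2450 by the main test. TPM is a share of all transcripts, immunoglobulin transcripts included, and carries no correction for their uneven amount.

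Gfi1 (chromosome 5, 107716657 to 107726036, minus strand) had 65.0, 30.3 and 22.7 CPM in mutant 5-FU replicates 1 to 3 and 35.8, 38.0 and 52.8 CPM in WT 5-FU replicates 1 to 3. The mutant libraries lay on both sides of the WT ones, with the largest spread of any group for this gene. PBS libraries had 31.8 to 48.7 CPM in the mutant and 29.1 to 52.5 CPM in WT. Log2 fold changes were -0.10 ± 0.33 between genotypes after 5-FU (edgeR adjusted p = 0.887), -0.06 ± 0.26 under PBS (1), 0.02 ± 0.29 for 5-FU in the mutant (0.988) and 0.07 ± 0.29 for 5-FU in WT (0.883). On log2(TPM + 1) the last of these was 1.52 ± 0.58 (limma adjusted p = 0.0441), with 38.0 ± 5.31 TPM after 5-FU and 14.4 ± 10.1 TPM after PBS. That fit called 7509 of the 16482 genes, 6930 of them as higher.

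Gfi1b (chromosome 2, 28609450 to 28621982, minus strand), the repressor of erythroid cells and megakaryocytes whose upstream sequence is shown above, had its lowest values among PBS libraries. WT 5-FU replicates 1 to 3 had 72.8, 59.0 and 63.7 CPM, against 28.9, 49.2, 10.7, 58.0 and 52.6 CPM in WT PBS replicates 1 to 5. These groups did not overlap, which held for 31.8% of all genes in this comparison, and the highest PBS library was close below the lowest 5-FU library. The log2 fold change was 0.71 ± 0.44 (edgeR adjusted p = 0.249). It turned to -0.25 ± 0.40 (edgeR adjusted p = 0.891) once the share of immunoglobulin counts entered the fit. It passed with limma-voom and quality weights (0.76 ± 0.27, adjusted p = 0.0369) and with limma on log2(TPM + 1) (2.28 ± 0.87, adjusted p = 0.0431). The latter 2 fits called 6993 and 7509 of the 16482 genes. Mutant 5-FU replicates 1 to 3 had 43.5, 72.7 and 96.4 CPM, and mutant PBS replicates 1 to 5 had 35.8, 27.7, 33.6, 73.0 and 77.2 CPM, so these groups overlapped (0.52 ± 0.45, edgeR adjusted p = 0.718). Between genotypes the differences were 0.12 ± 0.50 after 5-FU (edgeR adjusted p = 0.914) and 0.31 ± 0.39 under PBS (1).

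Among mutant 5-FU libraries Gfi1b was the lower the higher the immunoglobulin share, at 43.5 CPM with 26.6%, 72.7 CPM with 16.9% and 96.4 CPM with 5.69%. In both PBS groups the replicates with over 25% of such counts had 27.7 to 58.0 CPM of Gfi1b, apart from WT replicate 3 with 10.7 CPM. Markers of the cells that need GFI1B were measured beside it. The sum of 8 megakaryocyte markers was 124 to 264 CPM in mutant 5-FU, 197 to 259 in WT 5-FU, 86.9 to 132 in mutant PBS and 53.8 to 97.9 in WT PBS libraries, with Gp6 at 0 in every PBS library. The sum of 9 erythroid markers was 274 to 373 CPM in mutant 5-FU, 102 to 278 in WT 5-FU, 69.1 to 536 in mutant PBS and 257 to 546 in WT PBS libraries, with Slc4a1 at 0 in every WT 5-FU library. The part of these cells or of immunoglobulin transcripts in the level of Gfi1b was not tested.

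Under PBS, 0 of the 7 members were called between mutant and WT by edgeR, where 0.0182% of all genes were called, and 0 members and 541 of all genes had an unadjusted p under 0.05. DESeq2 and limma-voom also called 0 members. The median log2 difference over the members was 0.14, against -0.02 over all genes. After 5-FU the medians were -0.10 over the members and 0.07 over all genes for mutant against WT.

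**Figure D4:**
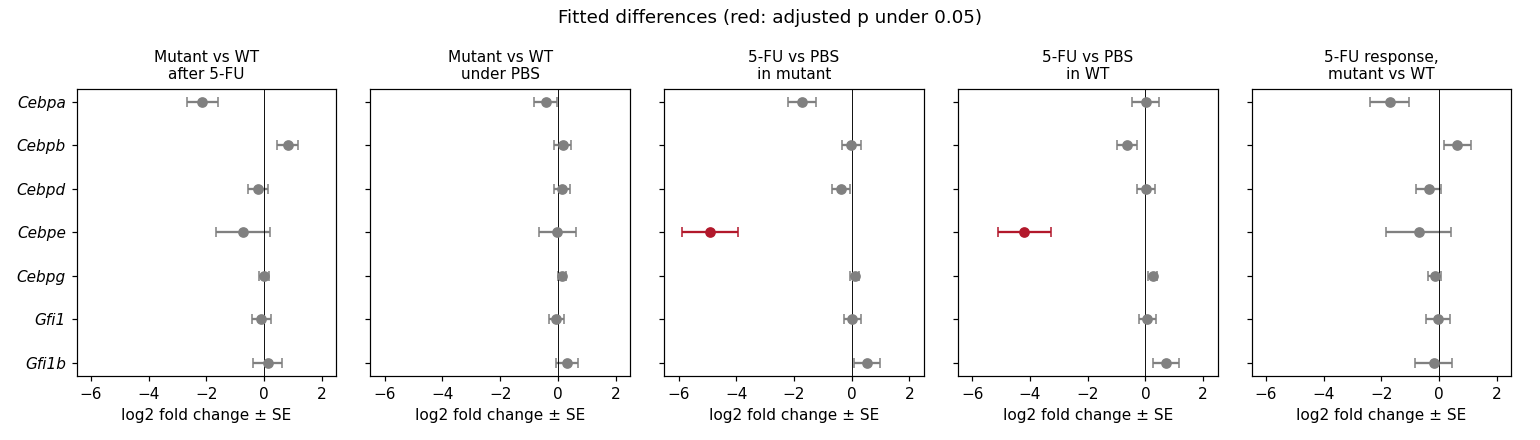
Log2 fold change and SE of the 7 genes in the 5 comparisons, edgeR fit of all 16 libraries, red where the adjusted p was under 0.05. Only Cebpe after 5-FU is red, at -4.91 in the mutant and -4.20 in WT.

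Genes known to carry C/EBP sites and the granule genes of later neutrophils were followed as 2 lists. Of 12 secondary and tertiary granule genes, 7 fell in the mutant after 5-FU, 0 rose and 5 were not past the threshold, with a median log2 fold change of -8.20 (all genes -0.03) where 1.36% of all genes were called as lower. In WT 11 fell, 0 rose and 1 was not past the threshold, with a median of -10.44 (all genes -0.11), or -10.0 with Fcnb, which is at 0 in each WT 5-FU library, set to the bound that 3 counts per library allow, where 9.31% were called as lower. Mmp9, a matrix protease of tertiary granules, had 0.868 CPM after 5-FU and 61.7 CPM after PBS in the mutant (-6.13 ± 0.94, edgeR adjusted p = 0.00269), and 0.457 against 88.7 CPM in WT (-7.65 ± 1.02, 0.000442). Cd177, a neutrophil surface protein, had 0.148 against 71.3 CPM in the mutant (edgeR adjusted p = 0.000607) and 0.136 against 96.0 CPM in WT (0.000232). Fcnb, a ficolin of neutrophil granules, had 0.222 against 73.9 CPM in the mutant (edgeR adjusted p = 0.00385), and Ngp, a granule protein, 0.170 against 2379 CPM in WT (0.000741). The neutrophil marker list shares 7 genes with this one and moved with it, so the lists are not independent.

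Between genotypes after 5-FU, 0 of the 12 granule genes were called, with a median of 2.43, or 1.82 with Fcnb at its bound. The smallest p values were those of Ngp (4.47 against 0.170 CPM, edgeR adjusted p = 0.102), Camp, a granule antimicrobial peptide (3.14 against 0.0418 CPM, 0.158), and Fcnb (0 to 0.634 CPM against 0 in each WT library, 0.24). In WT 5-FU libraries the floor of 3 counts is 0.0798 to 0.114 CPM, and the WT mean of Camp lies below it. Only Fcnb was set to a bound. The summed neutrophil markers overlapped between these groups, at 3.66, 115 and 13.8 CPM in mutant and 20.3, 8.35 and 208 CPM in WT 5-FU replicates 1 to 3. Of 12 genes of granulocyte-monocyte progenitors, 0 were called in the mutant after 5-FU, with a median of -1.05 (all genes -0.03). Mpo and Elane, enzymes of primary granules, had -4.51 ± 1.3 (edgeR adjusted p = 0.104) and -5.76 ± 1.66 (0.109) there, and Lyz2, lysozyme, -1.48 ± 0.43 (0.0934). In WT 2 of the 12 fell and 0 rose, not far from the 9.31% of all genes called as lower, with a median of -1.08 (all genes -0.11): Lyz2 (-3.04 ± 0.46, edgeR adjusted p = 0.000901) and Csf2ra, a chain of the GM-CSF receptor (-1.16 ± 0.24, 0.00607), while Fcgr3, an Fc receptor, had -2.50 ± 0.82 (0.0524). Between genotypes after 5-FU 0 of the 12 were called; Csf1r, the M-CSF receptor, had 2.35 ± 0.76 (edgeR adjusted p = 0.126), Csf3r, the G-CSF receptor, -1.35 ± 0.44 (0.128) and Lyz2 1.34 ± 0.46 (0.14).

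**Figure D5:**
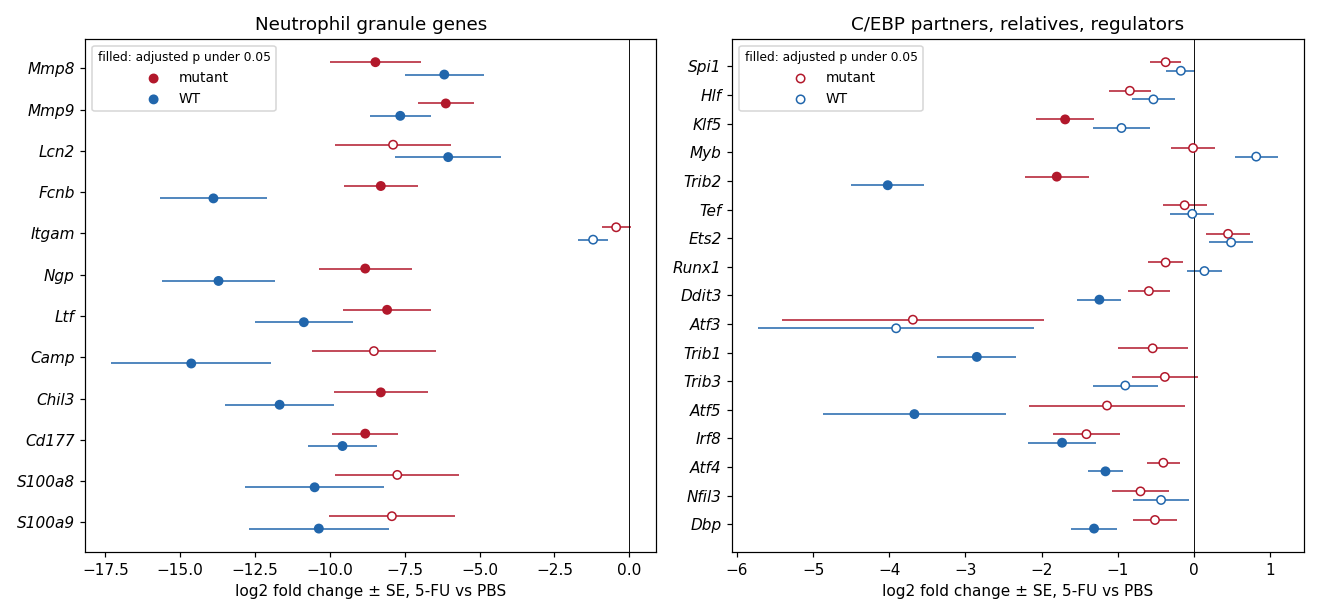
Log2 fold change and SE after 5-FU against PBS, in the mutant (red) and WT (blue), for 12 neutrophil granule genes and 17 partners, relatives and regulators of C/EBP factors. Filled points passed the threshold: 7 granule genes in the mutant and 11 in WT, and 2 regulators in the mutant and 7 in WT.

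Of 17 partners, relatives and regulators of C/EBP factors, 2 fell in the mutant after 5-FU and 0 rose, where 1.36% of all genes were called as lower, with a median of -0.54 (all genes -0.03). They were Trib2, a pseudokinase that directs the degradation of CEBPA (3.26 against 11.3 CPM, -1.80 ± 0.42, edgeR adjusted p = 0.0334), and Klf5, a zinc-finger factor of granulocyte differentiation (1.83 against 5.95 CPM, -1.69 ± 0.38, 0.0268). In WT 7 fell and 0 rose, where 9.31% of all genes were called as lower, with a median of -0.95 (all genes -0.11). Trib2 had 0.947 CPM after 5-FU and 15.4 CPM after PBS (-4.02 ± 0.48, edgeR adjusted p = 0.000183), its relative Trib1 4.31 against 31.3 CPM (-2.85 ± 0.52, 0.00292) and Atf4, a stress-induced leucine zipper factor, 66.3 against 148 CPM (-1.16 ± 0.23, 0.00477). Irf8, a factor of monocyte fate, had -1.41 ± 0.44 in the mutant (edgeR adjusted p = 0.134). Between genotypes after 5-FU 0 of the 17 were called. Those with the smallest p did not pass the threshold: Atf4 at 0.95 ± 0.25 (edgeR adjusted p = 0.0567), Trib1 at 2.05 ± 0.53 (0.0574) and Trib2 at 1.78 ± 0.46 (0.0588). Trib1 had 9.96 to 26.4 CPM in mutant 5-FU and 3.92 to 4.66 CPM in WT 5-FU libraries, which did not overlap, as was the case for 39.4% of all genes. Trib2 had 1.91 to 4.17 CPM against 0.759 to 1.17 CPM.

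Of 14 corepressors of GFI1 and GFI1B, 0 were called in the mutant after 5-FU (median 0.05, all genes -0.03) and 1 in WT (median 0.31, all genes -0.11), where 5.55% of all genes were called as higher, a share that 1 of 14 is near. The gene called was Ajuba, a LIM protein and corepressor of GFI1, which rose to 4.89 CPM after 5-FU, against 1.77 CPM after PBS (1.46 ± 0.45, edgeR adjusted p = 0.0415). Kdm1a, which encodes LSD1, had 0.82 ± 0.30 (edgeR adjusted p = 0.0699) and Rcor1, which encodes CoREST, 0.72 ± 0.24 (0.0558) in WT. In the mutant the smallest p values belonged to Cbfa2t3 (-0.48 ± 0.25, edgeR adjusted p = 0.442), Runx1t1 (-1.76 ± 1.00, 0.506) and Hdac3 (0.41 ± 0.20, 0.391). Between genotypes after 5-FU 0 were called, with Ehmt2, a histone methyltransferase, at -0.70 ± 0.23 (edgeR adjusted p = 0.131), and Rcor1 at -0.55 ± 0.28 (0.303).

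Of 12 genes reported as repressed by GFI1 or GFI1B in mouse blood cells, 1 rose and 0 fell in the mutant against WT after 5-FU, with a median of 0.23, where 1.49% of all genes were called as higher. It was Id2, an inhibitor of basic helix-loop-helix factors, at 27.0 to 89.7 CPM in mutant 5-FU and 8.28 to 10.1 CPM in WT 5-FU libraries (2.84 ± 0.64, edgeR adjusted p = 0.0337). Egr1, an immediate early factor, had 1.87 ± 0.91 (edgeR adjusted p = 0.29) and Id1 1.09 ± 0.54 (0.292). In WT 1 rose after 5-FU and 4 fell, where 5.55% of all genes were called as higher and 9.31% as lower, with a median of -0.52 (all genes -0.11); 1 of 12 is near the share of all genes called as higher. Egr1 had 13.2 CPM after 5-FU and 291 CPM after PBS (-4.47 ± 0.99, edgeR adjusted p = 0.0105), its relative Egr2 0.113 against 3.04 CPM (-4.70 ± 1.20, 0.0187) and Id2 9.17 against 44.3 CPM (-2.27 ± 0.59, 0.0203). The other fall was Irf8 (-1.73 ± 0.45, edgeR adjusted p = 0.0205), and the rise was Socs3, a brake on cytokine signals (88.0 against 13.7 CPM, 2.67 ± 0.81, 0.0419). Irf8 is also in the list of C/EBP partners, relatives and regulators, so its fall is counted in both lists. In the mutant 0 were called, with a median of 0.06; Hoxa9 had -0.60 ± 0.17 (edgeR adjusted p = 0.0844), Id1 1.55 ± 0.47 (0.114) and Egr1 -2.93 ± 0.91 (0.131).

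Under PBS 0 genes of the 5 lists were called between mutant and WT. The 3 genes of each list with the smallest p had log2 fold changes between -0.91 ± 0.57 (Csf1r) and 0.63 ± 0.81 (Runx1t1), each with an edgeR adjusted p of 1.

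Across the 16 libraries, the genes nearest to each member in pattern were found by the root mean square difference of log2 CPM, each gene centred on its own mean, among 10031 genes with at least 5 CPM. Ube2l3, a ubiquitin-conjugating enzyme, lay 0.11 from Cebpg, the smallest distance found, and D17Wsu92e and Nkap 0.14. Tcn2 and Lbp lay 0.26 and Pcp4l1 0.28 from Cebpd. Csad lay 0.27 from Gfi1, and Lrrc29 and Parp16 0.28. Tubd1 lay 0.29 from Gfi1b, and Polr3d and Acad9 0.33. Tmem158 lay 0.34, Cish, a cytokine-induced inhibitor, 0.36 and Sertad1 0.38 from Cebpb. Palm lay 0.51 from Cebpa, with Rab44 and Hk3 at 0.57. Cebpe, whose own values spread the most (SD 2.33 on this scale), had its nearest genes farther off, Cldn15 at 0.74, Clec12a at 0.75 and G0s2 at 0.81. Among the members themselves, Cebpd and Gfi1 were the nearest pair at 0.34, and Cebpe and Gfi1b the most distant at 2.83. Gfi1 and Gfi1b, close relatives in sequence, lay 0.96 apart. A gene of small spread lies near many others of small spread, so these distances are to be read within a member.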

How the data were processed

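Sorted LSK cells gave RNA through an RNeasy Micro kit, and NuGEN Ovation Ultralow reagents turned it into libraries, per the labels' protocols. The submitters' processing notes name FastQC 0.11.2, RSEM 1.3.1 and the builds mm10 and GRCm38. The sources used here give no aligner, annotation release or read filter. For each gene the authors deposited an expected count (not scaled to the library), TPM and FPKM, as the columns are named per the file headers; FPKM was not used.

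Expected counts were rounded and filtered in edgeR 4.0.16 (filterByExpr, minimum count 10), leaving 16482 genes, then scaled with TMM factors between 0.508 and 1.37. The quasi-likelihood test (robust, all 16 libraries, 1 mean per group) gave P values adjusted by Benjamini-Hochberg over all genes, with a threshold of 0.05. SE was the size of the log2 fold change over the root of its F statistic. Log2 CPM used a prior count of 2. The script was tested on simulated data. Alternatives used limma 3.58.1 (also on log2(TPM + 1)), DESeq2 1.42.0 and other scalings, filters, covariates and subsets. IDs were matched to GENCODE M21 for 99.8% of genes. No pair of replicates agreed within sampling noise.

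The 7 genes and all lists were chosen with earlier results of these data known. Named genes were the members, the 3 genes of each list with the smallest p in each comparison of 2 groups, and the 3 nearest genes in pattern per member (1 gene that this rule names is not reported here); beyond these, list genes past the threshold were named after their values were seen, as was TGATAA, added to the searched motifs. Same-numbered libraries were taken as pairs in the PBS groups (correlations of deviations from the group means between 0.16 and 0.57 over 5 pairs) and not in the other groups compared. Libraries of unlike number were not correlated, so these values cannot show that the number pairs the samples. The labels do not say that it does.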

Additional observations from a re-analysis of the deposited data

How the results depend on the processing

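Each of the 35 values (7 genes in 5 comparisons) was recomputed under up to 28 settings, which gave 951 values: 847 kept direction and side of the threshold, 22 kept direction and came under it, 5 kept direction and no longer passed, and 77 turned. The causes were not tested. Leaving out both PBS libraries of the highest immunoglobulin share was chosen after the data were seen. A fit of the 5-FU groups alone gave no value for Cebpe between genotypes, which had too few counts. Depth limits Cebpe most, with 2 to 28 expected counts per 5-FU library.

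Of the 7 genes, 0 were called between genotypes after 5-FU by the main test. Cebpa alone (count 1) was called with the immunoglobulin genes left out, by DESeq2, with the replicate block, with only the groups compared and without both PBS libraries of highest immunoglobulin share. These settings called 358, 1308, 1524, 2080 and 1077 of all genes in that order, against 321 by the main test. Limma-voom with quality weights called 2 members (Cebpa and Cebpb) and 5074 of all genes. Leaving out 1 library gave 0 to 1 (Cebpa without mutant PBS replicate 1, 3 or 4, Cebpb without WT 5-FU replicate 3). For 5-FU in WT, where the main test called 1, limma-voom and limma on log2(TPM + 1) called 4, the replicate block 2 (Cebpe and Gfi1b), the fit within a shared code prefix 0 (with 1 WT 5-FU library, assumed to vary like the other groups), and leaving out 1 library 0 to 2 (0 without WT 5-FU replicate 1 or 2). Of all 16482 genes, limma-voom called 6993 for 5-FU in WT, limma on log2(TPM + 1) 7509 and the main test 2450. For 5-FU in the mutant, with 1 by the main test, DESeq2 and the immunoglobulin share as a covariate called 2 (Cebpa and Cebpe). Those 2 settings called 887 and 607 of all genes, against 362 by the main test. Leaving out 1 library gave 0 to 2 members (0 without mutant 5-FU replicate 1 or 3). Under PBS and for the interaction every setting gave 0 members. The replicate block changed no member's call under PBS, where same-numbered libraries were taken as pairs. It also acts on the 5-FU groups, whose libraries were not taken as pairs. There it raised the genes called for 5-FU in WT to 7318, against 2450 without it. It raised Gfi1b to 1.25 (edgeR adjusted p = 0.0176) in WT and 1.07 in the mutant.

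Values that turned were small in the main test, the largest in size being -0.73. With limma-voom they were Cebpa (-0.18), Cebpd (-0.15) and Gfi1 (-0.01) for 5-FU in WT, Gfi1 for 5-FU in the mutant (-0.30), Cebpe for mutant against WT after 5-FU (0.91) and, in the interaction, Cebpe (1.13) and Gfi1b (0.04). On log2(TPM + 1) they were Cebpb for 5-FU in WT (0.63), in the mutant (0.47) and for the interaction (-0.15), Cebpd for 5-FU in the mutant (0.11), Gfi1 under PBS (0.07) and Gfi1b between genotypes after 5-FU (-0.84). With the replicate block they were Cebpb (0.11) and Gfi1 (0.0) for 5-FU in the mutant and Cebpd for 5-FU in WT (-0.05). With code writing as a covariate they were Cebpa for 5-FU in WT (-0.46), Cebpb for 5-FU in the mutant (0.15), Cebpe under PBS (0.01) and, for the interaction, Gfi1 (0.02) and Gfi1b (0.93). With the immunoglobulin share as a covariate they were Cebpa (-0.35) and Gfi1b (-0.25) for 5-FU in WT, Cebpe under PBS (0.01) and Gfi1b for the interaction (0.46). With only the groups compared they were Cebpa (-0.01) and Cebpd (-0.01) for 5-FU in WT. Within a shared code prefix they were Cebpb for 5-FU in WT (0.01) and in the mutant (0.13). With the immunoglobulin genes left out it was Gfi1 for 5-FU in the mutant (0.0). Without both PBS libraries of highest immunoglobulin share they were Cebpa for 5-FU in WT (-0.03), Gfi1 under PBS (0.13) and Gfi1 for 5-FU in the mutant (-0.06).

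Leaving out 1 library at a time turned the following. Under PBS, Cebpe ran from -0.44 to 0.35 and Gfi1 from -0.15 to 0.05. Between genotypes after 5-FU, Cebpd ran from -0.53 to 0.21, Cebpe from -1.39 to 1.41 (the highest without WT 5-FU replicate 3), Cebpg from -0.08 to 0.04, Gfi1 from -0.67 to 0.17 and Gfi1b from -0.17 to 0.37. For 5-FU in WT, Cebpa ran from -0.48 to 0.32, Cebpd from -0.42 to 0.25 and Gfi1 from -0.12 to 0.18. For 5-FU in the mutant, Cebpb ran from -0.23 to 0.16 and Gfi1 from -0.54 to 0.30. For the interaction, Cebpd ran from -0.68 to 0.06, Cebpe from -1.37 to 1.43, Gfi1 from -0.62 to 0.23 and Gfi1b from -0.48 to 0.07.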

Other observations

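The ratio of 2 genes within a library does not depend on how libraries are scaled. For Cebpb over Cebpa, a ratio chosen after the values were seen, log2 of the TPM ratio was 6.20, 6.24 and 6.30 in mutant 5-FU replicates 1 to 3, and 2.87, 3.27 and 3.48 in WT 5-FU replicates 1 to 3. The difference was 3.04, with p = 0.1 by an exact two-sided permutation test, the smallest that 3 against 3 libraries can give (0.2 adjusted over 8 tests). Mutant PBS libraries had a mean of 4.65 ± 0.80 and WT PBS libraries 3.95 ± 0.34 (SD, n = 5 each; difference 0.70, exact permutation p = 0.0714, adjusted 0.19). Taken as pairs of the same replicate number, a choice made after seeing the data, the ratio was higher in the mutant in 5 of 5 pairs (exact sign-flip permutation p = 0.0625, the smallest that 5 pairs can give, adjusted 0.125 over 2 ratios), and Gfi1b over Gfi1 in 3 of 5 pairs (p = 0.562, exact). Cebpa was the lower and Cebpb the higher in 5 of 5 of these pairs, as given above. The result for Cebpb over Cebpa follows from those directions and adds nothing to them. Set against PBS, the ratio after 5-FU was higher by 1.60 in the mutant and lower in WT (difference -0.75), each with an exact permutation p of 0.0357 and an adjusted p of 0.143. Mutant PBS replicate 1, at 6.01, was near the mutant 5-FU libraries.

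For Gfi1b over Gfi1 the log2 ratio was 0.04, 1.88 and 2.75 in mutant 5-FU replicates 1 to 3 and 1.63, 1.22 and 0.89 in WT 5-FU replicates 1 to 3. The mutant values lay on both sides of the WT ones (difference 0.31, exact two-sided permutation p = 0.8, adjusted 0.8 over the same 8 tests). In WT PBS replicate 3, the library with the lowest Gfi1b, it was -1.66. The other 3 comparisons of this ratio had exact permutation p values between 0.393 and 0.627.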
